A study of Mus musculus with 2 samples.

Results

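The Hox genes encode homeodomain transcription factors that give cells their position along the head-to-tail axis of the embryo. In the mouse they lie in the clusters Hoxa, Hoxb, Hoxc and Hoxd, and each cluster runs in order from paralogue 1 at its 3′ end to paralogue 13 at its 5′ end. Genes near the 3′ end act early and towards the head, and genes near the 5′ end act later, in the trunk, limbs and genitals. Silent clusters are covered by Polycomb proteins, and in developing limbs Hoxd genes are known to contact regulatory DNA on either side of their cluster. A domain boundary is a place in the chromosome that contacts seldom cross, so it bears on which DNA can readily touch a gene.

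The members were the protein-coding genes of GENCODE mouse release 21 named Hoxa, Hoxb, Hoxc or Hoxd followed by digits, and they were 39 of 21755 protein-coding genes. They were set against the domain boundaries of mature olfactory sensory neurons, the odour-detecting nerve cells of the nose. In situ Hi-C, which ligates neighbouring DNA ends in fixed nuclei, had been made from neurons that FACS isolated from the olfactory epithelium of adult OMP-GFP mice of mixed sex. The labels name the strain 129P2/OlaHsd. In these mice green fluorescent protein is made where the gene of the olfactory marker protein is active, which is in mature sensory neurons, so the sort rests on that reporter. The 1 group held 2 biological replicates, of 3000000 and 1500000 cells, fixed in 1% formaldehyde and cut with DpnII. There was no treatment and no second cell type.

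The authors called boundaries once, on the contacts of both replicates together, so no value below has a spread between replicates and none was tested. Every count is a description of 1 pooled list. Contact depth is unknown here. The list held 8058 intervals of 5 kb on GRCm38, each with a strength, a score from the authors whose scale is unstated. The authors' class was Weak for scores up to 0.5 and Strong above it. Hi-C boundaries carry no RNA level, so neither the cell type nor the activity of any Hox gene could be checked against markers.

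Each cluster was taken with 1 Mb to each side. The Hoxa cluster lies on the minus strand of chromosome 6, with 11 genes in 105 kb. The Hoxb cluster spans chr11:96194316-96368256 on the plus strand, with 10 genes in 174 kb. The Hoxc cluster spans chr15:102921103-103036852 on the plus strand, with 9 genes in 116 kb, from Hoxc4 to Hoxc13. The Hoxd cluster spans chr2:74668310-74765142 on the plus strand, with 9 genes in 96.8 kb.

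Each of the 4 clusters held exactly 1 boundary, and 30 more lay in the flanks, which made 34 of the 8058. The places of these boundaries differed from cluster to cluster. In Hoxa it was a 5 kb interval at the 3′ edge of the cluster. In Hoxb it was chr11:96265001-96270000, in the long gap between Hoxb13 and Hoxb9. In Hoxc it was chr15:102920001-102925000, which holds the Hoxc13 start site, and in Hoxd it was chr2:74665001-74670000, which holds the Hoxd13 start site. Another boundary, chr6:52270001-52275000, lay 9.12 kb beyond Hoxa13. These 5 intervals were the nearest boundary of all 39 Hox genes.

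Sequences are shown first for these intervals. The Hoxb boundary interval overlaps the microRNA gene Mir196a-1, and miR-196 is known to target Hox messenger RNAs. The clusters hold 7 microRNA genes, of which 6 had a mature sequence in RefSeq (GRCm38.p6). The 5p arms that share a seed, a miR-196 pair and a miR-10 pair, are given 5′ to 3′ with the seed, bases 2 to 8, in capitals. That of Mir615 shares its seed with none of them.
miR-196a-5p: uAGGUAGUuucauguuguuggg
miR-196b-5p: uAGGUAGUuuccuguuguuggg
miR-10a-5p: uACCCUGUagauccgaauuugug
miR-10b-5p: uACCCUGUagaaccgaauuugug
The miR-196 sequences differ in 1 base outside the seed. The same mature miR-196a-5p is encoded by Mir196a-1 in Hoxb, at chr11:96265187-96265208, and by Mir196a-2 in Hoxc, at chr15:102973365-102973386. Only Mir196a-1 lay on a boundary. Mir196b in Hoxa was 40 kb from its nearest boundary, Mir196a-2 was 50 kb, Mir10a 50 kb, Mir10b 60 kb and Mir615 90 kb. The seventh microRNA gene, Gm44463 in Hoxd, was 35 kb away. That makes 1 of 7 in a boundary interval, against 2.64% of the 2196 microRNA genes of the annotation, and 1 of 7 within 20 kb, against 18.1%.

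Hoxd13, which patterns digits and genitals, is the gene with the strongest of the 5 boundaries at its start. The 250 bases before its RefSeq start, chr2:74667975-74668224 on the plus strand of GRCm38.p6, lie wholly inside the boundary interval. They are shown with every CG in capitals because the interval is rich in CpG, with 196 CG against a median of 39 in the boundary intervals of the list.
Hoxd13 promoter: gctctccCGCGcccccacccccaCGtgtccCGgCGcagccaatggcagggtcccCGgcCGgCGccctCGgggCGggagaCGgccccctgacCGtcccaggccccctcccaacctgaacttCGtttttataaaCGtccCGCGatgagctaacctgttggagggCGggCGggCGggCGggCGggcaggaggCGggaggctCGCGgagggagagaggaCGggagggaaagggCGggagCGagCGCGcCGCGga
This stretch holds 31 CG and 0 copies of GATC, the DpnII site. With the 50 bases after the start included it holds 37 CG, a number that 5.58% of the 32851 RefSeq promoter windows reach or pass. The letters TATAAA, searched on both strands, occur 124 bases before the start. They occur in 4 of 24 Hox promoter windows (Hoxa10, Hoxb8, Hoxd4 and Hoxd13) and in 13.6% of all promoter windows. RefSeq windows were held for 22 of the 39 Hox genes, and their median of 14.5 CG ranged between 4 and 45, against 7 for all windows. Hoxa13, whose start lies 10 kb from the Weak boundary, had the highest count, 45, which 1.93% of all windows reach.

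The 5 boundaries differed widely in strength. The Hoxd13 boundary scored 1.03 and ranked 1711 of 8058, and the boundary at the 3′ edge of Hoxa scored 0.989 and ranked 1817, so both were Strong and both stood in the top 25% of the list, whose limit was 0.928. The Hoxb boundary scored 0.324 and ranked 5661. The Hoxc13 boundary scored 0.272 and ranked 6478, and the boundary beyond Hoxa13 scored 0.227 and ranked 7409. The last 3 were Weak, and 91.9% of the list scored at least as high as the weakest of them. The list as a whole had a median of 0.509 and reached 4.32.

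**Figure D1:**
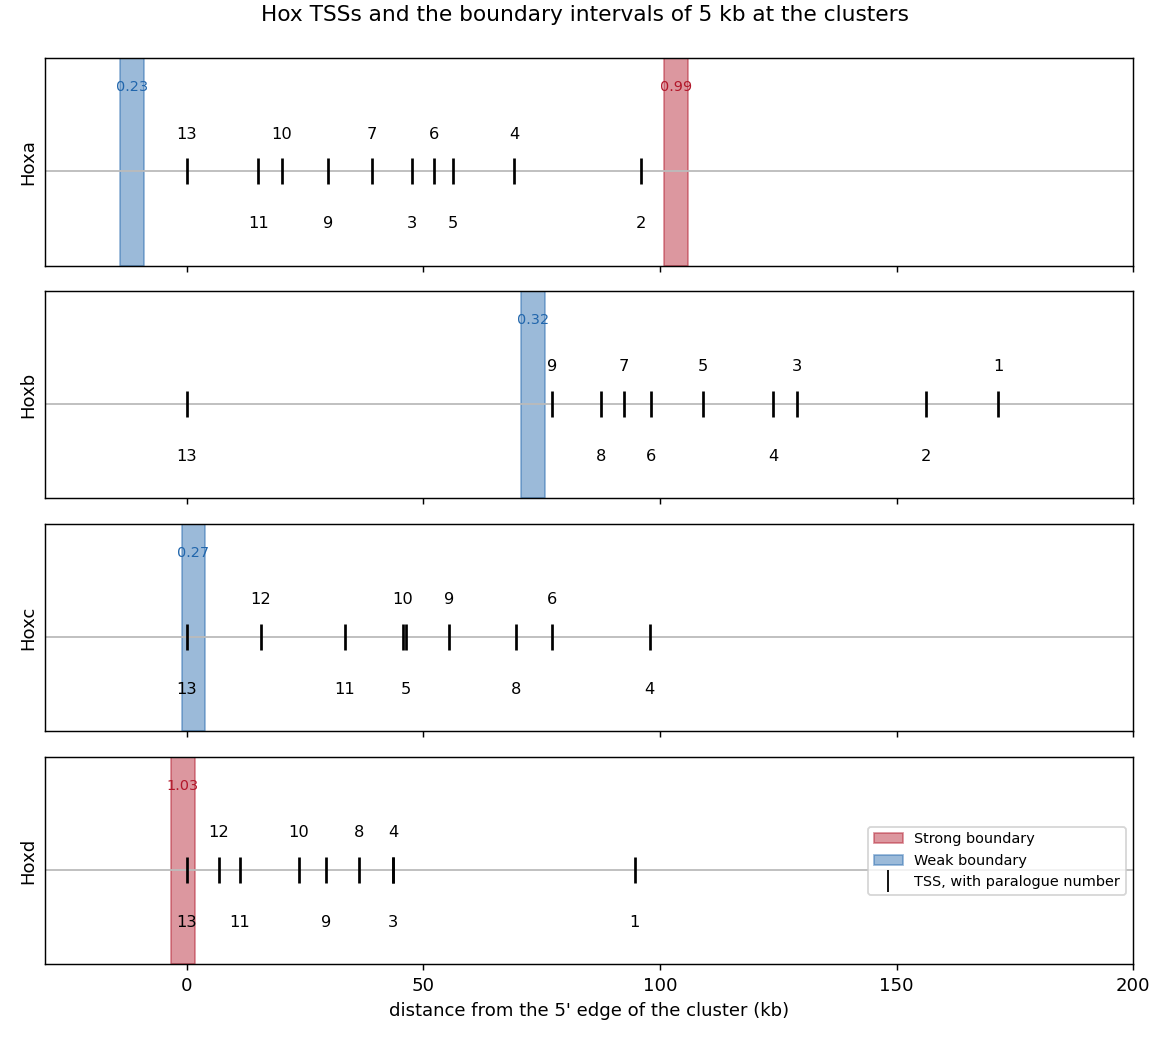
Start sites (TSSs, black ticks with paralogue numbers) and boundary intervals of 5 kb (red for Strong, blue for Weak, with the authors' strength) along each cluster, in kb from its 5′ edge. The Strong boundaries sit at the 3′ edge of Hoxa and on Hoxd13 at the 5′ end of Hoxd, and the Hoxb boundary is the only one with Hox genes clear of it on both sides. The plot shows 38 of the 39 genes.

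Of the 39 Hox genes, 11 had a boundary within 20 kb of the start site (28.2%), against 21.2% of all protein-coding genes. Within 20 kb means that the 5 kb bins of start site and boundary were at most 20 kb apart. The 11 genes drew on the same 5 boundaries, so they are not 11 separate observations. A Strong boundary lay within 20 kb of 5 of the 39 Hox genes, no larger a share than the 13.7% of all coding genes. A Weak one was the nearest of the other 6. The count was also 5 with the top 25% of strengths, against 7.04% of all coding genes. Both counts of 5 rest on the same boundaries, those at Hoxd13 and at the 3′ edge of Hoxa. At 10 kb the count was 8 Hox genes (20.5%), against 12.8% of all coding genes, and 3 Hox start sites lay in a boundary interval itself (7.69%), against 3.16%. At 50 kb the count was 29 (74.4%), against 44.9%. The median Hox gene lay 35 kb from a boundary, against 60 kb for all coding genes, whose quartiles were 25 and 105 kb. With Strong boundaries alone the medians were close, at 105 kb for Hox genes and 100 kb for all coding genes. With the top 25% of strengths they were 105 kb and 250 kb. With both classes no Hox gene lay farther than 100 kb from a boundary.

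Hoxa genes were near a boundary at both ends of their cluster. Hoxa2, which patterns the second pharyngeal arch, lay 5 kb from the Strong boundary. Hoxa13, which patterns the ends of the limbs and the genitals, lay 10 kb from the Weak boundary. The genes between them were farther from either edge: Hoxa4 at 35 kb, Hoxa5, which the lung needs, at 45 kb, Hoxa6 at 50 kb, Hoxa7 at 50 kb, Hoxa9, a gene of blood stem cells, at 40 kb, Hoxa10 at 30 kb and Hoxa11, which shapes the forearm, at 25 kb. Distances thus grew towards the middle of the cluster and shrank again. Hoxa3, needed for the thymus and parathyroid, stood at 55 kb by the start of its gene record and at 15 kb by its start codon, because that record reaches back over its 5′ neighbours.

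In Hoxb the distances rose on the 3′ side of the boundary in the order of the genes. Hoxb9, which patterns the ribs, lay at 5 kb, Hoxb8 at 15 kb and Hoxb7 at 20 kb. Hoxb6 stood at 25 kb, Hoxb5 at 35 kb, Hoxb4, known for its effect on blood stem cells, at 50 kb and Hoxb3 at 55 kb. Hoxb2 lay at 85 kb and Hoxb1, which specifies rhombomere identity in the hindbrain, at 100 kb, the highest value of any Hox gene. Hoxb13, a gene of the prostate and the tail end of the trunk, lay on the other side of the boundary at 75 kb. Hoxb13 and Hoxb9 were the only neighbouring Hox genes with a boundary interval between their starts, 1 of 35 adjacent pairs. The same share over all neighbouring coding genes was not counted, so the 1 of 35 is a description only. Starts within an interval, such as those of Hoxc13 and Hoxd13, did not count as separated.

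Hoxc and Hoxd distances rose from the 5′ end of the cluster. Hoxc13, which hair and nails require, lay in the interval at 0 kb, and Hoxc12 lay at 15 kb, Hoxc11 at 30 kb and Hoxc10 at 45 kb. Hoxc9 stood at 55 kb and Hoxc8 at 70 kb, and both are known for motor neuron identity in the spinal cord. Hoxc6 stood at 75 kb and Hoxc4 at 95 kb. Hoxc5 stood at 45 kb by its gene record, which starts next to Hoxc10, and at 90 kb by its start codon. In Hoxd, Hoxd13 lay at 0 kb, Hoxd12 and Hoxd11 each at 10 kb, Hoxd10 at 25 kb, Hoxd9 at 30 kb and Hoxd8 at 35 kb. Hoxd4 and Hoxd3 have gene records that start within the same bin, at 45 kb, and stood at 60 and 75 kb by their start codons, and Hoxd1, at the 3′ end, stood at 95 kb. The median distance was 35 kb in Hoxa, 42.5 kb in Hoxb, 45 kb in Hoxc and 30 kb in Hoxd.

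By paralogue position, 7 of the 16 genes with numbers 9 to 13 had a boundary within 20 kb, with a median distance of 25 kb. Of the 15 genes numbered 4 to 8, 2 did, with a median of 45 kb, and of the 8 genes numbered 1 to 3, 2 did, with a median of 55 kb. Over all coding genes the share was 21.2% and the median 60 kb. Neighbouring genes share boundaries, as Hoxd11, Hoxd12 and Hoxd13 do, so genes of a class are not separate observations. Both genes numbered 12 and 3 of the 4 numbered 13 were within 20 kb, while Hoxb13 was not. None of the 3 genes numbered 3, the 4 numbered 4, the 3 numbered 5, the 3 numbered 6 or the 3 numbered 10 was. Genes of 1 paralogue number stood at like distances in some cases and at unlike ones in others. Hoxc13 and Hoxd13 both stood at 0 kb. By gene records the genes numbered 3 stood at 45 to 55 kb and those numbered 5 at 35 to 45 kb. By start codons these distances were unlike. Hoxa3 then stood at 15 kb, inside the limit, and Hoxb3 and Hoxd3 at 75 kb. Hoxa5, Hoxb5 and Hoxc5 then stood at 45, 35 and 90 kb. The genes numbered 2 stood at 5 kb (Hoxa2) and 85 kb (Hoxb2), and those numbered 9 stood at 40, 5, 55 and 30 kb in Hoxa, Hoxb, Hoxc and Hoxd. The genes nearest to the 20 kb limit on its outer side, Hoxa11, Hoxb6 and Hoxd10, all stood at 25 kb, and Hoxb7 at 20 kb was the last one inside it.

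**Figure D2:**
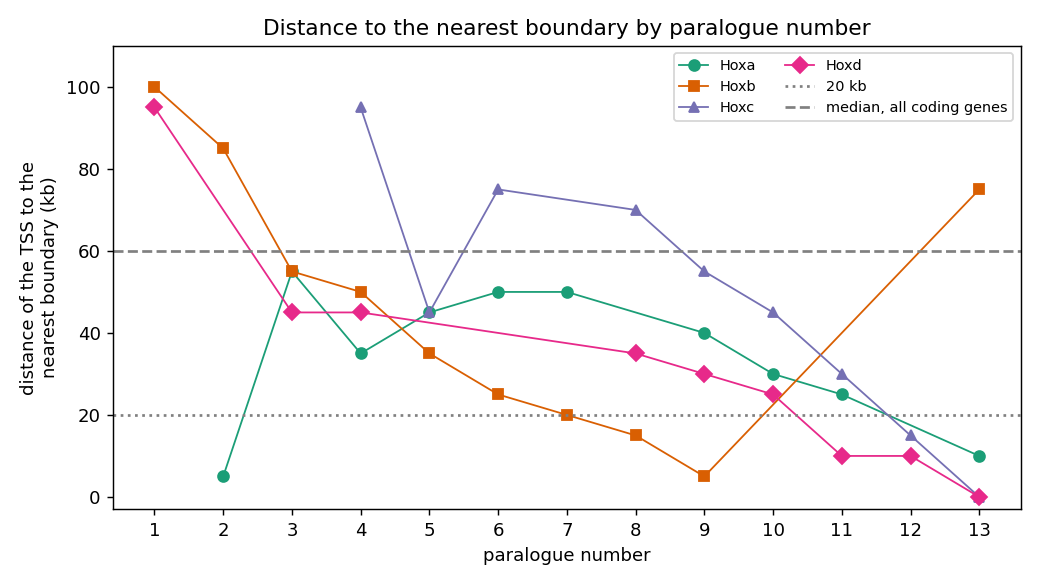
Distance in kb between each Hox start site and its nearest boundary (vertical axis) by paralogue number (horizontal axis), 1 point for each of 38 genes, joined within a cluster. Hoxa is lowest at paralogues 2 and 13, Hoxb is lowest at paralogue 9, and Hoxc and Hoxd are lowest at paralogue 13. The dashed line is the median of all coding genes, 60 kb, and the dotted line is 20 kb.

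Between neighbouring boundaries, most genes of a cluster fell into 1 domain. The Hoxa domain held the 10 genes from Hoxa2 to Hoxa13 in 115 kb with the coding entries Gm28308 and 5730596B20Rik, and 4.38% of the 8038 domains of the genome were as short. The median domain measured 260 kb, with quartiles of 180 and 380 kb. The Hoxb domain held the 9 genes from Hoxb1 to Hoxb9 in 465 kb, the longest domain with a Hox gene, together with the start of Skap1, which encodes a T cell adaptor protein. Hoxb13 lay in another domain of 240 kb with 5 genes outside the Hox family, Snf8, Ube2z, Atp5g1, Calcoco2 and Ttll6. The Hoxc domain held the 8 genes from Hoxc4 to Hoxc12 in 255 kb with Smug1, which encodes a DNA repair glycosylase. The Hoxd domain held the 8 genes from Hoxd1 to Hoxd12 in 290 kb with Mtx2, which encodes a mitochondrial import protein, and the coding entry Gm28230.

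These domains depended on which boundaries were counted. With Strong boundaries alone, Hoxb13 joined the other Hoxb genes, all 10 in 850 kb, and Hoxc13 joined the other Hoxc genes, all 9 in 420 kb. The Hoxd domain then reached 915 kb on the 3′ side and still began at Hoxd13. The Hoxa domain then reached 1625 kb on the 5′ side and kept its 3′ edge. The Strong boundaries of Hoxa and Hoxd thus lay at opposite ends of their clusters.

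The even-skipped homeobox genes lie just beyond paralogue 13 in Hoxa and Hoxd, and in both a boundary lay between them and the cluster. Evx1 had its start 52.6 kb from the Hoxa cluster, with the Weak boundary of 0.227 between it and Hoxa13. Evx2 had its start 8.75 kb from the Hoxd cluster, 10 kb from the Strong boundary at Hoxd13 by bins. The Hoxd boundary interval thus held the Hoxd13 start and left Evx2 in the 5′ domain, which measured 365 kb and also held Lnpk, a gene of the endoplasmic reticulum. The domain beyond Hoxa13 measured 280 kb and had Evx1 as its 1 coding start. On the 3′ side of Hoxa the next domain measured 285 kb and held Skap2, with its start 143 kb from the cluster, as its 1 coding start.

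Other neighbours were not divided from the cluster. Mtx2, 60.7 kb beyond Hoxd1, Skap1, 96.3 kb beyond Hoxb1, and Smug1, 130 kb beyond Hoxc4, each had 0 boundaries between their start and the outermost Hox start. Ttll6, which encodes a tubulin-modifying enzyme and starts 60.5 kb beyond Hoxb13, also had 0. Calcoco1, 199 kb beyond Hoxc13, had 2, with strengths of 1.04 and 0.272, and the domain between them, 165 kb long, held 0 coding starts. The domain past the 3′ boundary of Hoxd, 210 kb long, also held 0. Thus the 3′ neighbour shared the domain of Hoxb, Hoxc and Hoxd, and the 3′ neighbour of Hoxa did not.

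The 4 boundaries inside the clusters amounted to 8.13 per Mb over 492 kb (95% exact Poisson interval 2.22 to 20.8), against 3.81 per callable Mb in the flanks (2.57 to 5.44) and 3.15 per callable Mb in the genome. Callable means 5 kb bins without undetermined bases, and the Poisson intervals cover counting error only. A boundary counted as inside if it overlapped the cluster at all. Those of Hoxa, Hoxc and Hoxd reached across an outer edge, and only that of Hoxb lay wholly within its cluster. The 8.13 per Mb is therefore not a density of cluster interiors. The flanks held 18 boundaries on the 5′ side of the clusters and 12 on the 3′ side. By cluster, the flanks held 2.99 per callable Mb in Hoxa, 4.98 in Hoxb, 4.34 in Hoxc and 2.99 in Hoxd. The flanks of Hoxb and Hoxc, with 42 and 49 coding starts, thus held more boundaries than those of Hoxa and Hoxd, with 9 and 8 coding starts. The 3′ flank of Hoxc runs close to the end of the sequenced chromosome, and 147 kb of that window are undetermined bases.

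Of the 34 boundaries, 16 were Strong (47.1%, 95% exact binomial interval 29.8% to 64.9%), against 50.8% of the list. The Hoxa flanks were weakest, with 1 Strong of 6 and a median strength of 0.358, and no boundary above 0.615. The Hoxb flanks had 6 Strong of 10 and a median of 0.750, the Hoxc flanks 4 of 8 and 0.728, and the Hoxd flanks 3 of 6 and 0.472. The flanks thus differed in strength, and the boundary at the 3′ edge of Hoxa exceeded every boundary in the flanks of its cluster. The Hoxd13 boundary scored below 2 in its flanks, of 1.88 and 1.05.

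The 3 strongest boundaries of the windows all lay far from the clusters. The strongest, 2.16 at rank 188, was chr11:95530001-95535000, 659 kb from Hoxb13 and 20 kb from the start of Nxph3, which encodes a secreted neurexin ligand. The next, 2.01 at rank 271, was chr15:103360001-103365000, 323 kb from the Hoxc cluster, and it overlaps Itga5, an integrin gene, whose start is 5 kb away. The third, 1.88 at rank 368, was chr2:75580001-75585000, 815 kb from the Hoxd cluster and 75 kb from the start of Hnrnpa3, an RNA-binding protein gene. In all, 13 of the 34 stood in the top 25% of the list. The outermost boundary inside a window was 962 kb from Hoxb, with a score of 0.366, and the nearest ones just outside were 1020 kb from Hoxd, at 0.649, and 1021 kb from Hoxa, at 1.35.

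**Figure D3:**
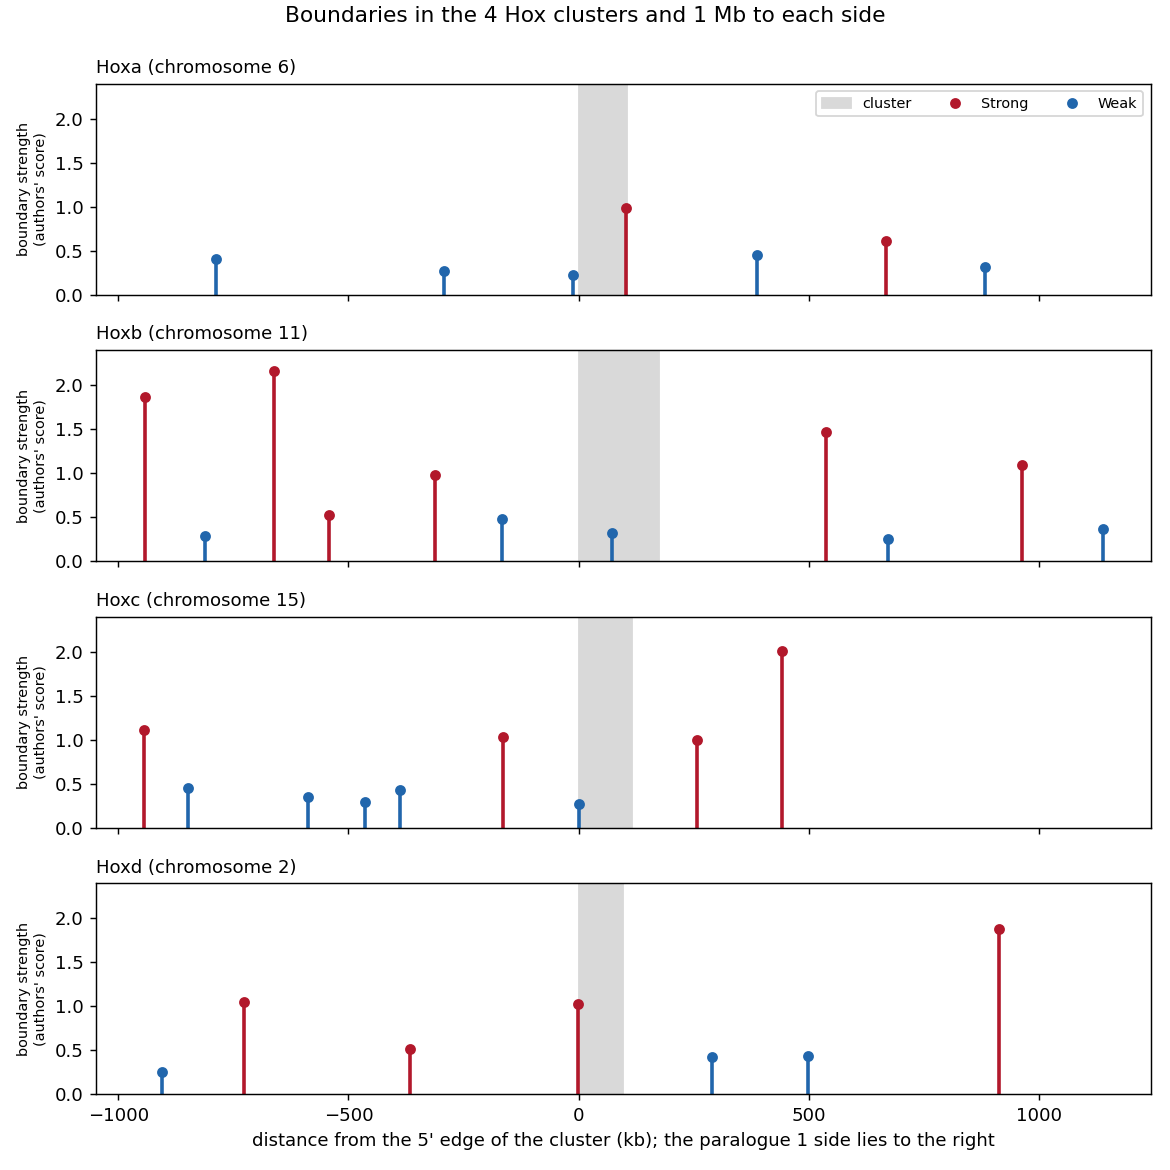
Boundary strength (the authors' score, vertical axis) against distance in kb from the 5′ edge of each cluster (horizontal axis), with the cluster in grey, Strong boundaries in red and Weak ones in blue. The boundary at the 3′ edge of Hoxa, 0.989, is the highest of its window, while the Hoxb and Hoxc windows hold flank boundaries of 2.16 and 2.01 above a Weak one at the cluster.

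The next boundaries outside the clusters lay at unequal distances. On the 5′ side, beyond the boundary next to Hoxa13, the next was 289 kb from the cluster, in Hibadh, a gene of valine breakdown. In Hoxb it was 164 kb away, overlapping Gip, an incretin hormone gene, in Hoxc 161 kb away, 35 kb from Calcoco1, and in Hoxd 363 kb away. On the 3′ side it was 281 kb away in Hoxa, within Skap2, 362 kb in Hoxb, within Skap1, 138 kb in Hoxc, 10 kb from Smug1, and 190 kb in Hoxd, where the nearest coding start was Mtx2 at 130 kb. Coding starts thus lay close to the flank boundaries of Hoxb and Hoxc more often than to those of Hoxa and Hoxd. A coding start lay within 20 kb of 2 of 6 flank boundaries in Hoxa and 8 of 10 in Hoxb. The counts were 6 of 8 in Hoxc and 1 of 6 in Hoxd, 17 of 30 in all, against 37.6% of the list. In Hoxa the boundary beyond Hoxa13 is counted through Hoxa13 itself, 10 kb away. These shares were not set against other places in the same flanks. A coding start lay in the interval of 7 of the 34 boundaries (20.6%), against 7.48% of the list, and 3 of these 7 starts were Hox genes.

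CTCF is the zinc finger protein that binds many domain boundaries, and its motif has a direction. Its core of 14 bases was searched by its consensus on both strands of the reference. A match is a run of letters and not a measured binding site. An exact match lay within 20 kb of 14 of the 34 boundaries (41.2%), against 21.9% of all boundaries and 10.1% of callable 5 kb bins. The count was 8 of 16 for Strong and 6 of 18 for Weak boundaries, and 0 of 4 for those inside the clusters. No cluster held an exact match, while the flanks held 39, of which 6 were in Hoxa, 15 in Hoxb, 9 in Hoxc and 9 in Hoxd. Of the 39, 16 lay within 20 kb of a boundary. The flanks as a whole were rich in exact matches, with 39 in 1600 bins, against 6562 in 511497 callable bins of the genome. The share at the 34 boundaries was not set against other places in the same flanks.

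The matches beside Hoxd all pointed towards the cluster, 3 of 3 on its 5′ side and 6 of 6 on its 3′ side. In Hoxa 3 of 6 did, in Hoxb 9 of 15 and in Hoxc 5 of 9, which made 26 of 39. A site at the first boundary beyond the Hoxd cluster on either side, and the pair at the strongest boundary of the windows, in Hoxb, are shown with the core in capitals, every one on the strand that carries the motif.
Hoxd 5′ side, chr2:74300440-74300469, plus: aacaatgaCCAGTAGGTGGCGGtccagcca
Hoxd 3′ side, chr2:74964529-74964558, minus: aggagcctCCAGCAGGGGGCACccttttgc
Hoxb 5′ side, chr11:95520915-95520944, minus: cgggccgcCCACCAGGTGGCGCgccgacgc
Hoxb 5′ side, chr11:95533935-95533964, plus: gcctctggCCAGCAGGGGGCGCtgcgatgc
The Hoxd site on the 5′ side lies in the boundary of 0.514 and the one on the 3′ side lies 5 kb from that of 0.422, and they face each other across the cluster. The Hoxb pair faces away from each other around the boundary of 2.16.

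With 1 mismatch allowed, 31 of the 34 boundaries had a match within 20 kb, against 76.3% of the list, and the clusters themselves held 13 matches. Of these, 4 lay in Hoxa, 5 in Hoxb, 2 in Hoxc and 2 in Hoxd, and 11 of the 13 were on the minus strand. The Hoxa ones are shown because each lies within 0.308 kb of a Hox start, and the Hoxb one because it lies in the boundary interval. The mismatch is in capitals.
at Hoxa5, chr6:52204657-52204670, minus: ccagcGggtggcgc
at Hoxa7, chr6:52221807-52221820, minus: ccagGagatggcag
at Hoxa10, chr6:52240539-52240552, minus: ccacGagatggcgc
at Hoxa11, chr6:52245495-52245508, minus: ccactaAatggcac
Hoxb boundary, chr11:96265873-96265886, minus: ccactagggggcCc
The Hoxa matches lay 0.077 kb from the start of Hoxa5, 0.04 kb from that of Hoxa7 and 0.308 kb from those of Hoxa10 and Hoxa11, and none of these 4 genes had a boundary within 20 kb. Matches of at most 1 mismatch numbered 36.4, 27.8, 16.7 and 19.0 per Mb in the Hoxa, Hoxb, Hoxc and Hoxd clusters, against 27.5, 53.5, 43.6 and 22.5 in their flanks and 25.2 in the genome. They were thus denser than the flanks in Hoxa and sparser in the other 3 clusters.

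The clusters differ from their surroundings in base composition, and these features were measured because repeats and restriction sites affect where reads can be placed. Their part in the boundary calls was not tested. Soft-masked bases, mostly repeats, made up 13.4% of Hoxa, 24.4% of Hoxb, 16.0% of Hoxc and 14.6% of Hoxd, against 26.0%, 30.0%, 34.3% and 26.4% of the flanks in the same order and 34.3% of the genome. CpG numbered 29.5 per kb in Hoxa, 20.8 in Hoxb, 21.2 in Hoxc and 27.2 in Hoxd, against 10.3, 13.8, 10.6 and 9.68 in the flanks and 8.34 in the genome. All 4 clusters were thus poor in repeats and rich in CpG. DpnII sites numbered 2.15, 2.43, 2.33 and 2.10 per kb in Hoxa, Hoxb, Hoxc and Hoxd, against 2.34, 2.48, 2.65 and 2.31 in the flanks and 2.51 in the genome. The 5 boundary intervals at the clusters held 10 to 14 DpnII sites each, against a median of 12 over the list, and their soft-masked share was 11.4% to 20.3%, against 28.7%.

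**Figure D4:**
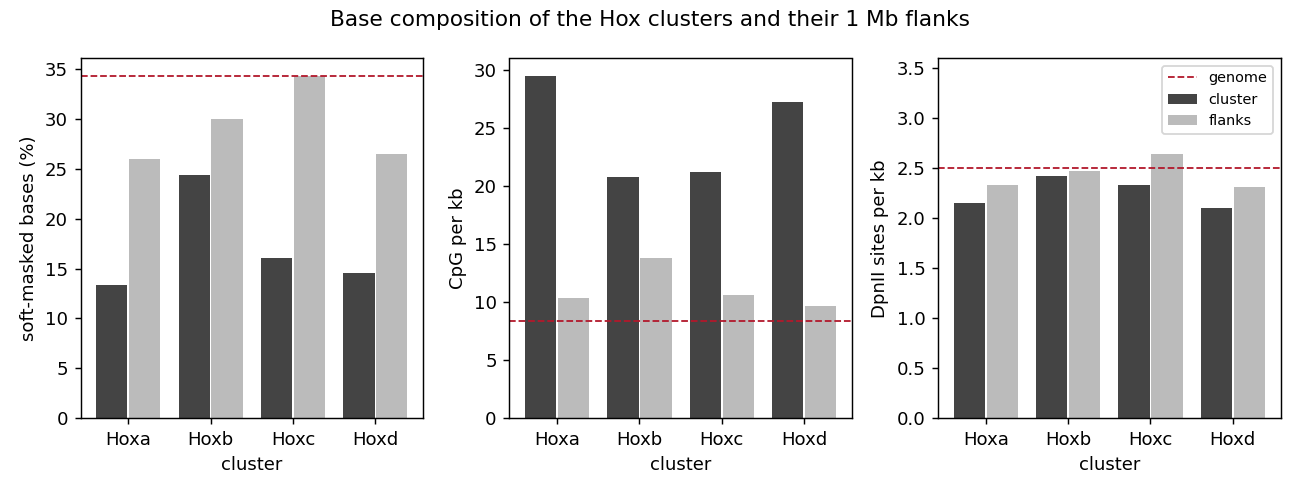
Soft-masked bases in percent (left), CpG per kb (middle) and DpnII sites per kb (right) in each cluster (dark bars), in its flanks (light bars) and in the genome (dashed line). In every cluster the masked share and the DpnII density are below those of the flanks, and CpG density is above.

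The clusters also hold noncoding genes. The types counted were antisense, lincRNA, microRNA, processed transcript and bidirectional promoter lncRNA genes, 25 in all. Of these, 2 overlapped a boundary interval, Mir196a-1 in Hoxb and the antisense gene Hotairm1 in Hoxa. A gene of an uncounted type, misc_RNA, also overlaps the Hoxa interval. The share over all noncoding genes was not counted, so nothing is drawn from the 2 of 25. The 5 lincRNA genes lay 15 to 85 kb from a boundary, and Hotair, known for its role with Polycomb in human cells, lay 25 kb from that at Hoxc13.

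A list of 45 genes joined those that work with or on the Hox genes to ParaHox genes and linked or related homeobox genes. All were found in the annotation. Of these, 10 had a boundary within 20 kb (22.2%), close to the 21.2% of all coding genes, and their median distance was 50 kb, against 60 kb. The cofactors of the Pbx, Meis and Pknox families, which bind DNA with Hox proteins, had 2 of 9. These were Pbx3, in a Strong interval of 0.563, and Pknox2, 10 kb from a Weak one of 0.202. The homeobox relatives had 3 of 8, namely Evx2 at Hoxd13, Dlx2 at 15 kb from a boundary of 0.639 and Dlx3 at 5 kb from one of 1.27. The ParaHox genes, among them the caudal genes, which act upstream of Hox genes, had 0 of 6.

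The Polycomb list, whose products keep Hox genes silent, had 3 of 16. Jarid2 and Rnf2 had their starts in intervals of 0.867 and 1.05, and Ring1 lay 10 kb from one of 0.762. The Trithorax list, whose products keep Hox genes active, had 2 of 6, Ash2l at 5 kb from a boundary of 0.480 and Rbbp5 at 20 kb from one of 0.359. The 11 of 39 Hox genes within 20 kb of a boundary compare with 26 of 67 histone genes (38.8%) and 1 of 57 clustered protocadherin genes (1.75%), which also lie in clusters. Median distances were 35 kb for Hox genes, 40 kb for histone genes and 120 kb for protocadherins.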

How the data were processed

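The deposited file lists domain boundaries as 5 kb intervals on GRCm38. Per the series design text, the authors called them on the pooled contact matrix of both replicates; neither caller nor mapper is named in the sources used here. Each row holds a class (Strong or Weak) and a strength, a score the authors deposited without a stated scale, used here only to rank and divide boundaries. Contact lists, matrices and signal tracks were not used here.

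Genes came from GENCODE mouse release 21 and sequence from GRCm38; microRNA and promoter sequences came from RefSeq (GRCm38.p6), matched by symbol. Start sites were the 5′ ends of gene records, and distances were counted between 5 kb bins. Python 3.11.15 with numpy 2.4.6, pandas 2.3.3, scipy 1.17.1 and matplotlib 3.10.9 was used; the distance and motif searches were tested on simulated data. With 1 pooled list there was no test. The members and gene lists were chosen with earlier results of these data known. Named besides the Hox genes were, by rule, the coding genes nearest to the cluster boundaries, to the next boundary on each side and to the 3 strongest boundaries, the genes next to each cluster, noncoding genes on a boundary, and list members within 20 kb of one. Other genes sharing a domain with Hox genes, the other microRNAs and Hotair were named after their values were seen. The values of 1 Hox gene are not reported here; counts over the family include it.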

Additional observations from a re-analysis of the deposited data

How the results depend on the processing

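Of 25 alternative values, 14 stayed close to the value reported and 11 moved. The moves came with a wider window, another flank length, fewer boundaries, a looser motif or the reversed motif. The 11 Hox genes within 20 kb became 29 at 50 kb, 5 with Strong boundaries alone and 5 with the top 25% of strengths. The shares of all coding genes at these settings were 44.9%, 13.7% and 7.04%. The 4 boundaries inside clusters became 2 with Strong ones alone. The 30 in the flanks became 15 at 0.5 Mb, 60 at 2 Mb and 14 with Strong ones alone. A count changes with the length of the flank, so the moves with flank length say nothing about density. The median Hox distance of 35 kb became 105 kb with Strong boundaries alone, close to the 100 kb of all coding genes. It was also 105 kb with the top 25%, against 250 kb for all coding genes. The 14 boundaries with a CTCF core match became 31 with 1 mismatch allowed and 0 with the reversed consensus. The reversed consensus requires a CG, which the core does not, and its share over the whole list is not given. Its 0 is therefore no like-for-like control, and nothing is drawn from it. Start codons in place of start sites, an alternative chosen after seeing the data, gave 12 genes within 20 kb and a median of 40 kb. No paired analysis was possible because the list pools both replicates of the only group, and neither replicate could be left out. The unknown contact depth limits how well a Weak boundary can be told from none.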
